A study of Mus musculus with 27 samples.

Results

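The nuclear-encoded subunits of the respiratory chain and the ATP synthase were described in tumour macrophages and in the immune cells around them, with and without an intact Ogt gene in myeloid cells. Members were taken by gene symbol: names that begin with Ndufa, Ndufb, Ndufc, Ndufs, Ndufv, Uqcr, Cox4, Cox5, Cox6, Cox7, Cox8 or Atp5, and Sdha, Sdhb, Sdhc and Sdhd, with Ndufaf assembly factors and processed copies (-ps names) left out. The rule uses symbols alone, though it was set with earlier results of these data known. It gave 93 genes, 44 for complex I, 4 for complex II, 8 for complex III, 19 for complex IV and 18 for complex V. Of these, 91 had a row among the 48440 genes of the bulk count files and 89 among the 33696 genes of the single cell matrices.

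The respiratory chain sits in the inner mitochondrial membrane. Complex I (NADH dehydrogenase) and complex II (succinate dehydrogenase) pass electrons to coenzyme Q, complex III passes them to cytochrome c and complex IV (cytochrome c oxidase) passes them to oxygen, while the pumped protons drive complex V (ATP synthase). Mitochondrial DNA encodes a few core subunits, and the nucleus encodes the others, which are imported as proteins. In macrophages the balance between this chain and glycolysis is known to shift with activation state.

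The samples came from mouse tumours grown from MC38, a colon adenocarcinoma line. The WT group carried floxed Ogt alleles (Ogt-flox), and the KO group carried the same floxed alleles together with Lyz2-cre, so the floxed alleles are shared by both groups. Ogt encodes O-GlcNAc transferase, which attaches O-GlcNAc sugars to nuclear, cytoplasmic and mitochondrial proteins. Lyz2-cre drives recombination in myeloid cells at large, including monocytes and neutrophils, and it is inserted in the Lyz2 gene. Ages, sexes, the strain background and the number of animals behind a library are not in the labels.

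Tumour-associated macrophage RNA was measured in 3 WT and 3 KO bulk libraries. The labels do not say that these came from separate animals, so p-values measure the spread between these libraries, which may be technical. For CD45+ immune cells the labels list 2 single cell samples per genotype, and 1 matrix per genotype was used. Whether a matrix holds 1 or both of them is not given in the sources used here, its barcodes carry no sample mark, and each matrix was treated as 1 sample. EGR2 CUT&Tag peaks and ATAC regions of the macrophages were used as lists, 1 per genotype for EGR2 and 1 merged list for ATAC.

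The targeted gene was lower in every KO library: Ogt stood at 61.0, 58.7 and 49.2 CPM (reads scaled to library size with TMM factors) in the WT libraries and at 31.96, 39.1 and 33.0 CPM in the KO libraries. The count covers the whole gene, so it does not measure the deleted part alone. Lyz2 fell from 3882 ± 53.8 to 84.0 ± 1.52 CPM (SD, n = 3 each), in the direction that the inserted cre gives. Bulk libraries held 7032540 to 32406170 counts, the deepest being KO library 1. Macrophage markers (12 genes) summed to 11869 to 12131 CPM in WT and to 10987 to 11216 CPM in KO, with none at 0. Markers of other cells also moved, where 18.8% of all genes tested rose and 18.9% fell. CD8 T cell markers rose in 6 of 6 genes (summed 73.1 to 75.6 CPM in WT, 155 to 166 CPM in KO, none at 0). That list shares Cd3e, Cd3g and Trac with the CD4 T list, which rose in 4 of 5 tested. Type 1 dendritic cell (cDC1) markers rose in 5 of 7 (937 to 960.4 CPM, then 1252 to 1277 CPM) and monocyte markers in 7 of 10. Migratory dendritic cell markers fell in 6 of 7 tested (630.5 to 648 CPM, then 265 to 267 CPM) and neutrophil markers in 5 of 8. NK markers rose in 3 and fell in 4 of 7 tested. The part of these other cells in the results on the respiratory chain was not tested. In bulk samples, fewer cells of a type and less RNA per cell cannot be told apart.

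Before the values, 4 promoter windows show the DNA in front of members that changed in the bulk libraries. RefSeq promoters (build GRCm38.p6) matched 73 of the 93 members by symbol. Each window printed here runs from 170 bases before to 30 bases from the gene start, on the strand of the gene, and Ndufa6 and Atp5e were chosen as falls and Ndufa9 and Sdha as rises from the 3 of each with the smallest adjusted p that had a sequence. Capitals mark matches on either strand to the searched letters, which were GCGCA and, after any base, GCGC for NRF1, CCGGAAG for ETS factors such as GABPA, AAGATGGCG for YY1, AAGGTCA for ERRA and GCGNGGGCG for EGR factors. The Ndufa6 window is chr15:82354262-82354461 (minus strand), Atp5e chr2:174464072-174464271 (minus), Ndufa9 chr6:126849115-126849314 (minus) and Sdha chr13:74350211-74350410 (minus).
Ndufa6: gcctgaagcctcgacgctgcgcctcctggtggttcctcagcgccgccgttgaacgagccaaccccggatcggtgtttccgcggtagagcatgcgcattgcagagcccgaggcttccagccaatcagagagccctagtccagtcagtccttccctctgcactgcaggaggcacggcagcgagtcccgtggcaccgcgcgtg
Atp5e: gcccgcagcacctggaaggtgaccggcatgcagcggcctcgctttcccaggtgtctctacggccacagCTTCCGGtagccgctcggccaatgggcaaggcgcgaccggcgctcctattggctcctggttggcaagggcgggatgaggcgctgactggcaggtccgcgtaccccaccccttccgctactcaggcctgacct
Ndufa9: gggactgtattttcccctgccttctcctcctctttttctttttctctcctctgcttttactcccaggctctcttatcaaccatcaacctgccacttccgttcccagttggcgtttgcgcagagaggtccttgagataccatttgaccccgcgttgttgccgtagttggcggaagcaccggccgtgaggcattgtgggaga
Sdha: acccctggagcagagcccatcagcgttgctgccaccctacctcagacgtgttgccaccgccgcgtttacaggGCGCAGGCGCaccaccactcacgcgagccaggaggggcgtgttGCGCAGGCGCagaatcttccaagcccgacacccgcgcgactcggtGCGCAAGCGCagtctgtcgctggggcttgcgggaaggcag

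The Sdha window holds 3 NRF1 matches, which begin 98, 55 and 10 bases before the start. The Atp5e window holds 1 ETS match, which begins 102 bases before it. The Ndufa6 and Ndufa9 windows hold none of the searched letters. Nor do those of Cox7a2l and Ndufc2, which complete the 3 falls and 3 rises and are not printed. A window without a match says nothing about binding of these factors. The wider RefSeq windows hold 1 NRF1 match for Ndufa6 and 1 YY1 match for Ndufa9. Over the full RefSeq windows of 300 bases (250 before and 50 from the start), NRF1 letters were found in 16 of 73 members (21.9%) against 4.78% of 27025 promoters. ETS letters were in 21.9% of members against 9.12% of all, YY1 letters in 8.2% against 1.49%, and ERRA letters in 11.0% against 4.66%. EGR letters were in 3 members (4.1%) against 5.55% of all promoters. The median GC content was 57.3% in members and 52.7% in all promoters, which the GC-rich motifs share. NRF1 letters were no more frequent in members that changed: they stood in 5 of the 26 that fell, 1 of the 4 that rose and 10 of the 38 that were not called.

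In bulk macrophage RNA, most subunit genes differed little between genotypes. Those that passed the test were more often lower in KO, less so with an offset for exon length (given below). Of the 82 members tested with edgeR's quasi-likelihood test (Benjamini-Hochberg adjusted p below 0.05, adjusted over 12939 genes), 8 rose and 28 fell, that is 9.76% and 34.1%, against a background of 18.8% of all genes higher and 18.9% lower. The members' median log2 fold change was -0.07, with all genes at -0.00. The sign of that median rests on the scaling: with library totals in place of TMM factors it was 0.01, with 13 members higher and 19 lower. All genes then had a median of 0.09, with 3370 of 12939 higher and 1757 lower. The members' median therefore lay below that of all genes under both scalings. The raw counts of all members took 0.786% to 0.794% of the WT libraries and 0.791% to 0.799% of the KO libraries, and the groups overlapped. Cytosolic ribosomal protein genes fell in 77 of 85 (summed 68629 to 69539 CPM in WT and 47821 to 47905 CPM in KO).

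**Figure D1:**
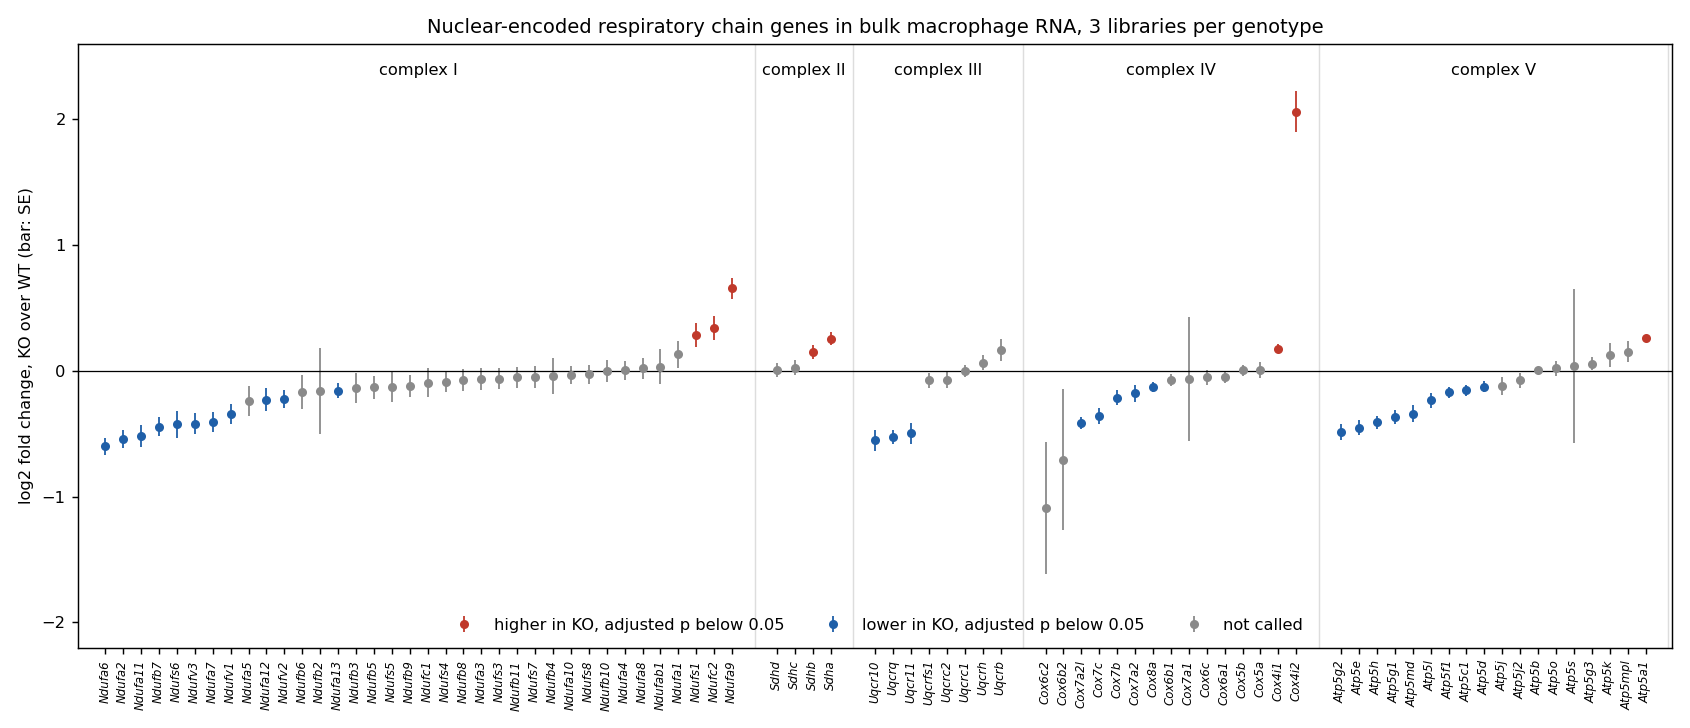
Log2 fold change, KO over WT, of the tested members, 1 of the 82 left out (vertical axis; bars are the SE of the edgeR fit, 3 libraries per genotype), ordered within complexes I to V and coloured by the test. Cox4i2 stands apart at 2.06, and the other called members lie between -0.60 and 0.66. The members' median of -0.07 (all genes -0.00) becomes 0.01 (all genes 0.09) when library totals replace TMM factors.

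Exon length moved with the result. Members are short genes, with a median exon length of 1423 bases, and 51 of the 82 lie in the shortest quintile of all genes (up to 1797 bases). Over all genes that quintile had a median log2 fold change of -0.17 with 8.96% of genes higher and 22.6% lower, and the longest quintile had 0.09 with 26.2% higher and 13.2% lower. Inside the shortest quintile the members' median was -0.09, above that of the other short genes, with 3 members higher and 18 lower. With a per-library offset for length, 14 of the 82 members rose and 16 fell, which is near the shares of all genes (16.5% and 19.3%). The members' median was then -0.02, and that of all genes -0.02. Of the 36 called members, 23 kept their call under that offset, 7 of the rises and 16 of the falls. Under all alternatives together, 21 of the 36 stayed called in the same direction, 6 higher and 15 lower.

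**Figure D2:**
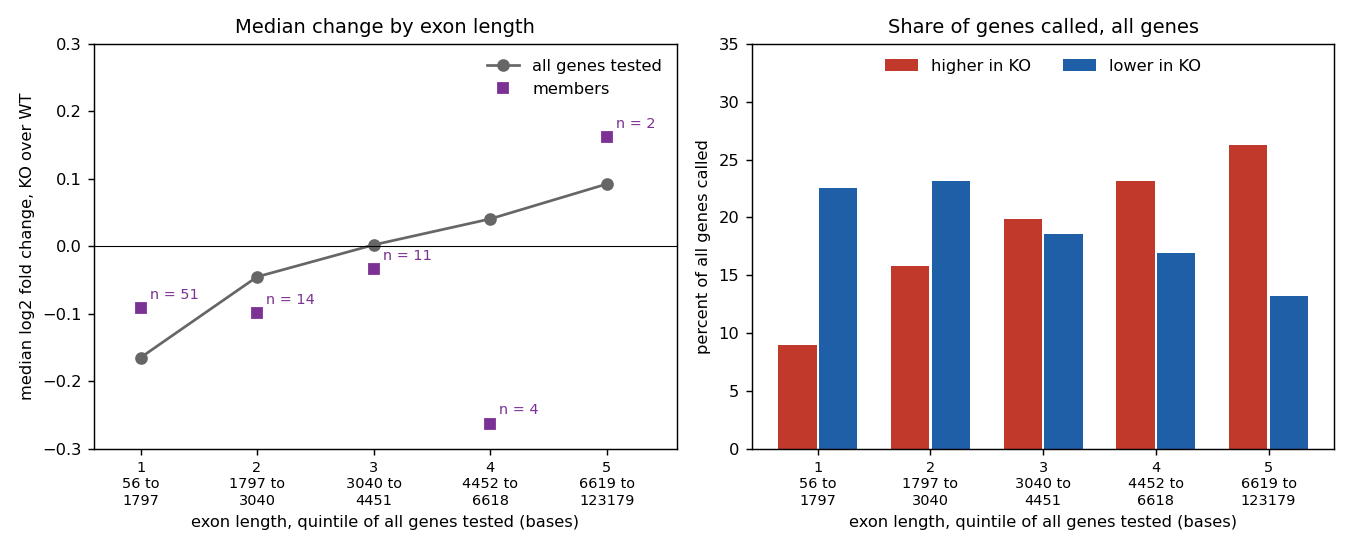
Left, median log2 fold change (KO over WT) in quintiles of exon length, for all 12939 genes tested (line) and for the members in each quintile (squares, with their number). Right, percent of all genes called in each direction per quintile: calls lower in KO go from 22.6% in the shortest quintile to 13.2% in the longest.

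Cox4i2 was the member that changed most. It encodes the alternative form of subunit 4 of cytochrome c oxidase, known from lung and from cells under low oxygen, while Cox4i1 encodes the common form. Cox4i2 (ENSMUSG00000009876.13, mm10 chromosome 2, 152754173 to 152765037, plus strand) stood at 11.0, 4.30 and 7.61 CPM in the WT libraries and at 32.7, 36.8 and 30.8 CPM in the KO libraries, so the groups lay far apart. It rose by a log2 fold change of 2.06 (SE 0.160, adjusted p = 4.71e-18 by edgeR), and it stayed called in every alternative, from 1.79 to 2.502. Cox4i1 was at 293, 279.8 and 306 CPM in WT and at 329.6, 335 and 329.6 CPM in KO, and it rose by 0.18 (adjusted p = 2.21e-05). Per kilobase of exon, Cox4i1 was at 189 ± 8.53 in WT and 214 ± 1.90 in KO, and Cox4i2 at 9.70 ± 4.26 and 42.4 ± 3.92 (CPM per kilobase, SD, n = 3). The common form therefore remained the more abundant in both genotypes.

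Most called members of complex I were lower in KO. Its members summed to 2025 ± 24.6 CPM in WT and 1840 ± 9.33 CPM in KO (SD, n = 3), a ratio of 0.909. Of 37 tested, 3 rose and 11 fell. For this and the complexes below, the shares over all genes in the main fit are 18.8% higher and 18.9% lower. Ndufa6, an accessory subunit of the matrix arm, was at 100.4, 101 and 112 CPM in WT and 71.4, 64.5 and 70.1 CPM in KO. It fell by 0.60 on the log2 scale (SE 0.0666, adjusted p = 9.88e-12). Ndufa2, another matrix arm accessory subunit, was at 87.0, 90.3 and 80.5 CPM in WT and 60.2, 60.4 and 56.8 CPM in KO, a fall by 0.54 (adjusted p = 3.82e-09). Ndufb7, which lies on the intermembrane space side, was at 78.3, 89.95 and 80.4 CPM and then 61.5, 62.0 and 58.9 CPM, a fall by 0.44 (adjusted p = 8.18e-07). In all 3 genes every KO library lay below every WT library. With the length offset the log2 fold changes of Ndufa6 and Ndufa2, both of short exon length, were -0.31 and -0.25, and that of Ndufb7 was -0.49, all still called.

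Ndufa9 went the other way. This accessory subunit, which sits where the matrix arm meets the membrane arm, was at 42.2, 42.2 and 48.2 CPM in WT and 68.1, 73.5 and 67.0 CPM in KO. It rose by 0.66 (SE 0.0832, adjusted p = 6.29e-10). Ndufc2, a membrane arm accessory subunit, rose from 39.9 ± 3.37 to 50.3 ± 4.06 CPM (adjusted p = 0.00226). Ndufs1, the large iron-sulfur core subunit, rose from 38.1 ± 3.42 to 46.6 ± 1.95 CPM (adjusted p = 0.0117), a call lost without WT library 1 (adjusted p = 0.065), without WT library 3 (adjusted p = 0.0555) and under the length offset (adjusted p = 0.099). Among the other core subunits Ndufv1 and Ndufv2, which make up the NADH-oxidising end, fell (log2 fold changes -0.34 and -0.22, named after their values were seen; Ndufv2 without KO library 1 had an adjusted p of 0.0635, with the length offset 0.0588, and its call was lost with library totals), and Ndufs3, Ndufs7 and Ndufs8 were between -0.06 and -0.03 and were not called. Ndufa4, named for complex I but now placed in complex IV, was at 73.2 ± 7.08 and 73.2 ± 3.25 CPM.

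Complex II had no member lower in KO. All 4 Sdh genes had a positive log2 fold change, 2 passed the test, and their sum was 440 ± 5.33 CPM in WT and 478 ± 4.33 CPM in KO. Sdha, the flavoprotein that oxidises succinate, was at 119, 119.8 and 119 CPM in WT and 147, 145 and 135 CPM in KO, and it rose by 0.26 (SE 0.0531, adjusted p = 5.73e-05). Sdhb, the iron-sulfur subunit, was at 107, 108 and 110.1 CPM in WT and 120.0, 118 and 123 CPM in KO (log2 fold change 0.15, adjusted p = 0.0242). That call was lost without WT library 1 (adjusted p = 0.0818), KO library 1 (adjusted p = 0.064) or KO library 3 (adjusted p = 0.0752). The 2 membrane anchors were not called, with Sdhc at 96.7 ± 4.30 and 98.8 ± 2.19 CPM and Sdhd at 116 ± 1.71 and 117 ± 3.29 CPM, and their groups overlapped. Whether complex II differs from the other complexes was not tested.

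In complex III 3 small subunits fell of 8 members tested and none rose, while with the length offset 2 rose (Uqcrb, log2 fold change 0.33, and Uqcrh, 0.15) and 2 fell. Uqcrq was at 134, 135 and 128 CPM in WT and 90.2, 88.5 and 96.9 CPM in KO, a fall by 0.53 (SE 0.0575, adjusted p = 5.01e-12). Uqcr10 fell from 77.7 ± 9.29 to 53.5 ± 4.86 CPM (adjusted p = 4.68e-08, log2 fold change -0.55, or -0.26 with the length offset) and Uqcr11 from 73.5 ± 9.28 to 51.9 ± 7.17 CPM (adjusted p = 1.90e-06, 0.0616 with the length offset). The core proteins Uqcrc1 and Uqcrc2 had log2 fold changes of -0.00 and -0.07, and Uqcrfs1, the Rieske iron-sulfur protein, -0.07 (named after their values were seen). The summed level of complex III was 812 ± 17.4 CPM in WT and 729 ± 14.7 CPM in KO.

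Complex IV held called members in both directions, 2 higher and 5 lower of 15 tested, and that balance turned with the length offset, to 4 higher and 2 lower, with the median going from -0.07 to 0.08. The complex summed to 1747 ± 31.6 and 1679 ± 14.97 CPM. Cox7a2l, a relative of subunit 7a that joins complexes III and IV into supercomplexes, was at 193, 185 and 192 CPM in WT and 140.0, 137 and 152 CPM in KO, a fall by 0.42 (SE 0.0475, adjusted p = 2.37e-11). Cox7c fell from 101 ± 3.45 to 79.1 ± 4.07 CPM (adjusted p = 4.57e-06). Cox7b fell from 119 ± 2.79 to 103 ± 6.85 CPM (adjusted p = 0.00236, 0.0806 with the length offset). Cox7a2, the common form of subunit 7a, fell from 91.6 ± 3.82 to 80.7 ± 3.48 CPM (adjusted p = 0.0253), a call lost without WT library 2 (adjusted p = 0.105), KO library 1 (adjusted p = 0.0652) or KO library 2 (adjusted p = 0.128). It was also lost with library totals (adjusted p = 0.277), with all low genes kept (adjusted p = 0.0535) and under the length offset, where its log2 fold change was -0.019 (adjusted p = 0.851). Cox8a was at 223 ± 11.8 and 205 ± 3.78 CPM, a fall by 0.13 (adjusted p = 0.0121), lost without WT library 1 (adjusted p = 0.147) or KO library 1 (adjusted p = 0.0951), and with the length offset it was a rise of 0.16 (adjusted p = 0.0016). Its direction is therefore not settled by these libraries.

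The tissue-restricted forms of complex IV subunits were scarce in bulk. Cox7a1, the heart and muscle form, was at 3.06 ± 0.507 CPM per kilobase in WT and 2.81 ± 0.666 in KO, where Cox7a2 was at 122 ± 5.07 and 107 ± 4.62. Cox6b2, the testis form, was at 1.495 ± 0.536 and 0.934 ± 0.447, where Cox6b1 was at 227 ± 4.82 and 216 ± 3.78. Cox6a1 was at 252 ± 5.90 and 244 ± 13.1 on that scale. Of these, Cox7a2 alone was called. A further 9 members did not pass the filter on low counts: Ndufa11b, Ndufb11b, Cox7b2, Cox8b and Cox8c had 0 counts in all 6 libraries, Ndufa4l2 had 2 to 24 counts, Cox6a2 0 to 18, Ndufs6b 0 to 6 and Ndufb4c 0 to 2.

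In complex V the alpha subunit of the catalytic head rose, and 9 other members fell. Atp5a1, the alpha subunit, was at 508, 509 and 515 CPM in WT and 599, 619.7 and 616 CPM in KO, and it rose by 0.26 (SE 0.0277, adjusted p = 2.47e-12). Atp5b, the catalytic beta subunit, was at 723, 734 and 713 CPM in WT and 715, 727 and 735 CPM in KO, and the groups overlapped (log2 fold change 0.00, adjusted p = 0.913). Atp5e, the epsilon subunit of the central stalk, was at 138, 138 and 140.2 CPM in WT and 100.4, 94.6 and 109 CPM in KO, a fall by 0.45 (SE 0.0564, adjusted p = 4.74e-10). Atp5h, the subunit d of the peripheral stalk, was at 157, 157 and 155 CPM and then 122, 117 and 114 CPM, a fall by 0.41 (adjusted p = 5.75e-10). Of 18 members tested, 1 rose and 9 fell, and the complex summed to 3125 ± 27.5 and 2997 ± 22.0 CPM.

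The c ring of the ATP synthase is encoded by Atp5g1, Atp5g2 and Atp5g3, which give the same mature protein from different precursors. Atp5g2 was at 112, 139 and 127 CPM in WT and 96.0, 86.7 and 84.7 CPM in KO, a fall by 0.48 (SE 0.0635, adjusted p = 2.17e-09). Atp5g1 was at 145, 148 and 143 CPM and then 112, 108 and 119 CPM, a fall by 0.37 (adjusted p = 3.77e-08). Atp5g3 was at 159, 157 and 142 CPM and then 157, 166 and 157 CPM, with overlapping groups (log2 fold change 0.06, adjusted p = 0.38). Per kilobase of exon, Atp5g2 and Atp5g3 stood side by side in WT at 75.2 ± 8.27 and 70.0 ± 4.22, and in KO Atp5g3 was at 73.2 ± 2.37 and Atp5g2 at 53.2 ± 3.62.

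**Figure D3:**
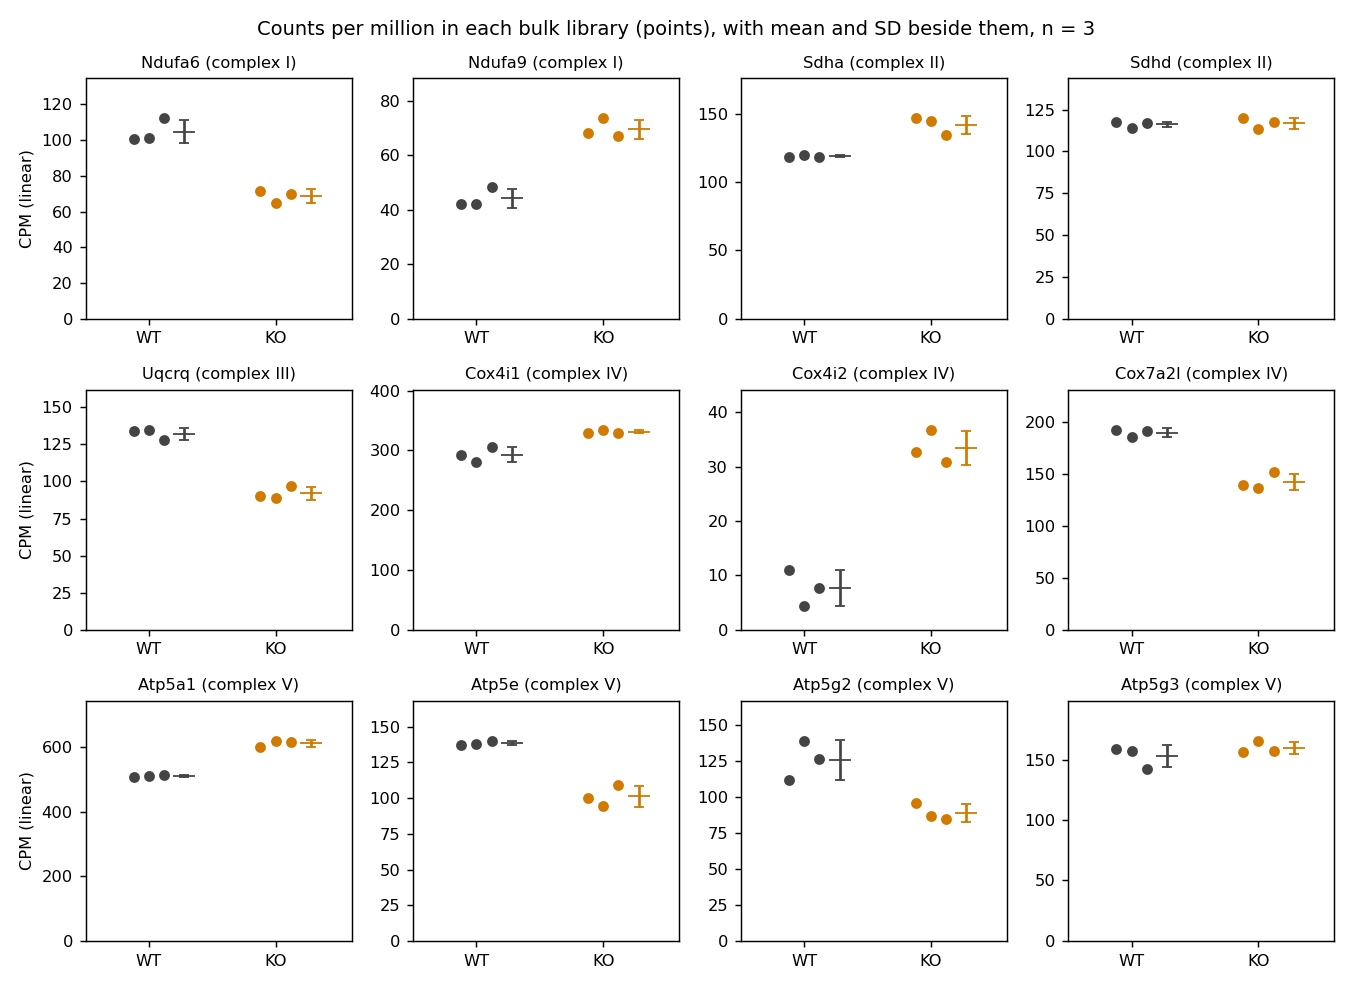
CPM of 12 members in each of the 3 WT and 3 KO bulk libraries (points, linear axis from 0), with the mean and SD beside them. The KO points of Cox4i2 (30.8 to 36.8 CPM) lie above all WT points (4.30 to 11.0 CPM), those of Atp5e lie below, and those of Sdhd and Atp5g3 overlap.

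Of the 82 tested members, 39 had groups that did not overlap, against 46.5% of all genes tested. Reads were counted without regard to strand, and 24 tested members share exon bases with another gene, among them Ndufa9 (3.19% of its exon bases), Cox4i1 (9.94%) and Ndufa2 (10.49%). Leaving these out, 5 members rose and 22 fell of the 58 that remain. Reads that matched several places were left out by the authors' counting, so subunits with near-identical processed copies are counted from distinct bases alone.

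The other genes of the pathway gave the following counts in the same fit, where 18.8% of all genes rose and 18.9% fell. The mtDNA-encoded subunits rose in 8 of 12 tested and fell in none (median log2 fold change 0.22), with mt-Nd1 at 967 ± 11.3 CPM in WT and 1322 ± 27.8 CPM in KO (adjusted p = 1.07e-27) and mt-Nd2 at 590.0 ± 21.0 and 737 ± 14.2 CPM (adjusted p = 2.14e-16). Their sum was 10487 to 10576 CPM in WT and 11463 to 11928 CPM in KO. Assembly factors were called in both directions. For complex I, 1 of 15 rose (Acad9, 13.3 ± 2.22 to 24.8 ± 1.95 CPM) and 2 fell, with a median log2 fold change of -0.21. For complex IV, 5 of 22 rose, led by Coa5 (106 ± 6.22 to 145 ± 8.09 CPM) and Higd2a, and 4 fell, near the shares of all genes. For complex III, 1 of 5 rose (Uqcc1) and 1 fell (Uqcc3), for complex II, 1 of 4 fell (Sdhaf1) and none rose, and for the ATP synthase none of 5 was called.

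Mitochondrial ribosomal proteins, which build the machinery that translates mtDNA, rose in 11 and fell in 22 of 77 (median -0.09), or in 16 and 14 with the length offset, with Mrpl54 and Mrpl52 the most certain falls. In the tricarboxylic acid cycle 3 of 14 rose and 3 fell, near the shares of all genes (18.8% and 18.9%). Malate dehydrogenase (Mdh2) was at 313 ± 6.72 CPM in WT and 276 ± 4.64 CPM in KO. In pyruvate entry 1 of 12 rose (Dlat) and 4 fell, among them Pdk1, a kinase that holds pyruvate dehydrogenase in check. In cytochrome c and coenzyme Q synthesis 2 of 13 rose (Coq5 among them) and 2 fell (Coq2 among them), also near those shares. Of the ADP and phosphate carriers 1 of 6 rose and 3 fell: the ADP/ATP carrier Slc25a4 fell from 95.2 ± 5.08 to 67.5 ± 0.976 CPM and the phosphate carrier Slc25a3 from 670.0 ± 11.8 to 599.8 ± 6.48 CPM. Of import and membrane organisation genes 4 of 18 rose, Mfn2 among them, and 7 fell, Hspe1 among them. Of 17 regulators of biogenesis 4 rose and 1 fell, or 1 and 1 with the length offset: Gabpa, whose letters were searched above, rose from 33.9 ± 2.87 to 43.0 ± 3.15 CPM (adjusted p = 0.00309), and Esrra, which encodes ERRA, fell from 58.6 ± 1.65 to 37.0 ± 4.02 CPM (adjusted p = 4.97e-09).

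Single cells gave the members' levels by immune class. After filtering, 9712 WT and 9767 KO cells were kept, in 23 clusters of which 20 were named into 10 classes from marker genes, and 23 barcodes were shared by the matrices. Each genotype has a lone matrix, so nothing here is tested, and intervals cover counting error only. All members together took 1.68% of UMIs (molecules counted once each) over all WT cells and 1.70% over all KO cells. The share was highest in CD8 T-like cells (2.08% WT, 1.94% KO) and lowest in neutrophil-like cells (0.520% and 0.474%). Between them in the WT matrix came NK-like (1.74%), fibroblast or endothelial-like (1.70%), regulatory T-like (1.65%), macrophage-like (1.54%), monocyte-like (1.48%), CD4 T-like (1.44%), gamma-delta T or ILC-like (1.34%) and B-like cells (0.977%). The order was the same in KO except that NK-like and fibroblast or endothelial-like cells, and regulatory T-like and macrophage-like cells, changed places. Neutrophil-like cells also had the lowest depth, with medians of 2301 and 2515 UMIs against 5579 and 5807 over all cells.

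In macrophage-like cells the members' share was 1.54% (95% exact binomial interval 1.53 to 1.54) in WT and 1.73% (1.72 to 1.74) in KO, a ratio of 1.13. Every complex was higher in KO, by a ratio of 1.13 for complex I, 1.16 for complex II, 1.07 for complex III, 1.21 for complex IV and 1.06 for complex V. With the unnamed cluster led by Ccl17 and Mmp12 added, complex V was at 1.003 (interval 0.995 to 1.01). In cluster 3 the complexes lay between 0.910 and 0.992, and in cluster 13 complexes II, III and V were at 0.834, 0.848 and 0.851. The mtDNA-encoded subunits gave 1.05 and cytosolic ribosomal proteins 0.962. Of 78 members with at least 100 UMIs in each matrix, 66 had a log2 ratio (of CPM + 5) above 0 and 12 below, with a median of 0.17 against 0.04 over 8323 genes. The size depends on which clusters enter: the ratio was 1.02 when members were left out of the clustering genes and 1.06 with the unnamed cluster added. By cluster it was 1.149 in cluster 1 (led by Gab1, Nrg1 and Nos2), 1.14 in cluster 14 (Cadm1, Vcam1, C1qc) and 1.001 in cluster 13 (Ccl12, Cd63, Ctsk), while cluster 3 (Pf4, Arg1, Ccl7) had 0.941. Cluster 1 (1177 WT and 1179 KO cells) scored 0.493 for macrophage and 0.36 for monocyte, with no macrophage marker among its leading genes. With members left out of the clustering genes, a cluster also led by Gab1 and Nrg1 scored 0.468 and 0.439 and stayed unnamed. The median depth of macrophage-like cells was 5324 UMIs in WT and 5860 UMIs in KO.

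**Figure D4:**
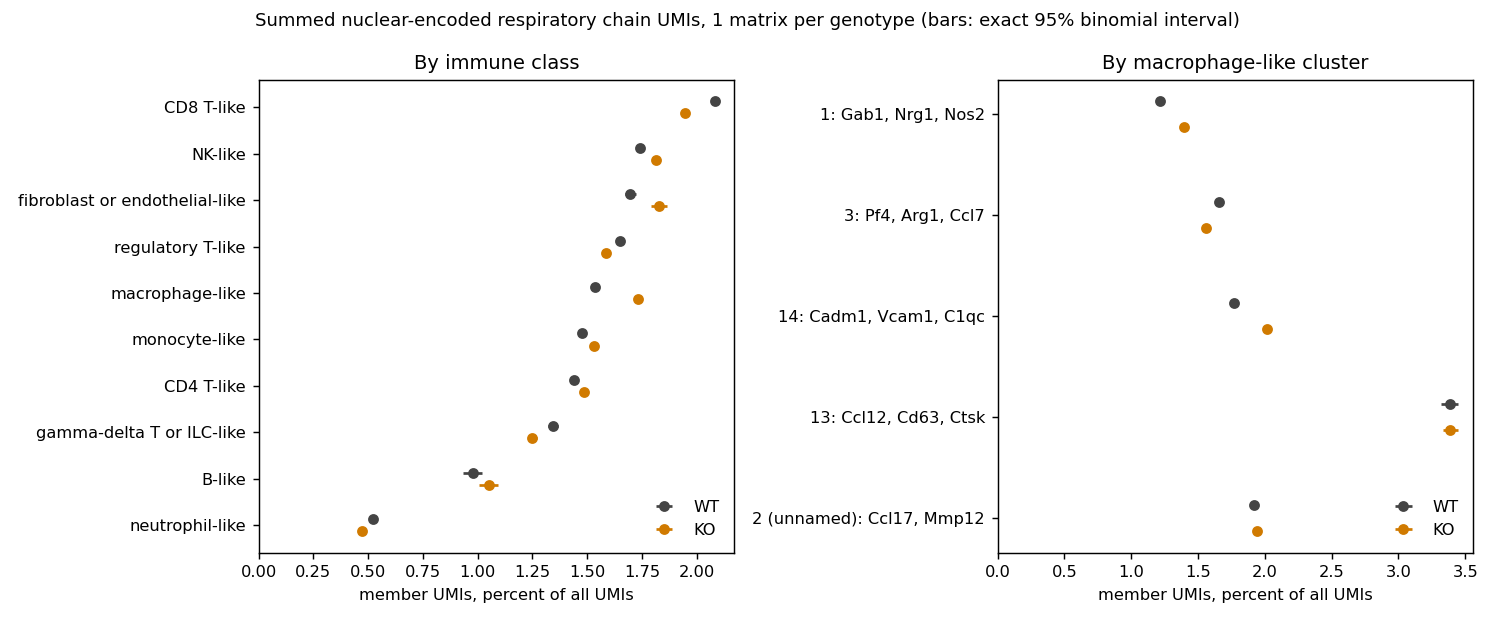
Percent of all UMIs that came from the members, by immune class (left) and by macrophage-like cluster with the unnamed cluster 2 (right), in the WT and the KO matrix (bars are exact 95% binomial intervals for counting error, mostly hidden by the points). The KO share is above the WT share in macrophage-like cells (1.73% and 1.54%), chiefly in clusters 1 and 14, and below it in CD8 T-like and neutrophil-like cells.

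The most abundant member of each complex in macrophage-like cells was Ndufb1 (386 CPM in WT, 452 CPM in KO), Sdhb (88.8 and 97.7), Uqcrq (299 and 313), Cox8a (773 and 827) and Atp5l (543 and 600.2). Ndufb1, a membrane arm subunit, has no row in the bulk files used here. The largest ratios among members with at least 100 UMIs were those of Ndufa9 (33.3 to 58.8 CPM, log2 ratio 0.73) and Cox4i1 (511 to 719 CPM, 0.49), both of which had risen in bulk. The lowest were those of Atp5e (579 to 494 CPM, -0.23) and Atp5h (376 to 325 CPM, -0.21), both of which had fallen in bulk. In bulk the CPM scale counts reads along the exons and here it counts molecules, so levels are compared within an assay only.

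The 2 assays used different libraries. Over the 77 members measured in both, the bulk log2 fold change and the macrophage-like log2 ratio had a Pearson r of 0.598 and a Spearman rho of 0.592, across genes, which share the libraries and are not independent replicates. All 7 members that rose in bulk and reached the UMI minimum had a log2 ratio above 0 (median 0.28). So did 66 of all 78 members that reached that minimum. Of the 28 that fell in bulk, 10 had a log2 ratio below 0 and 18 above, with a median of 0.05, and the members not called in bulk had a median of 0.22. The sign was the same in 35 of the 77. Cox7a2l was the clearest exception: it fell by 0.42 in bulk and was at 102 CPM (1363 UMIs) in WT and 140.5 CPM (2363 UMIs) in KO macrophage-like cells, a log2 ratio of 0.44.

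**Figure D5:**
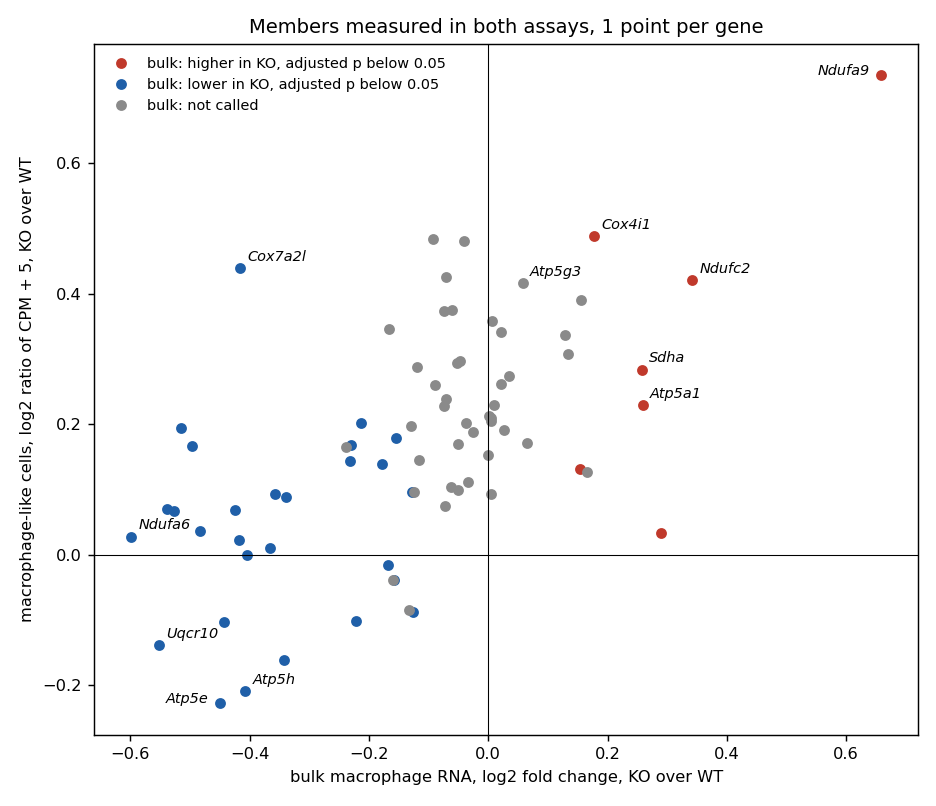
Each point is 1 of 77 members: bulk log2 fold change (horizontal, KO over WT, 3 libraries each) against the log2 ratio of CPM + 5 in macrophage-like cells (vertical, 1 matrix per genotype), coloured by the bulk test. Ndufa9 is highest on both axes, Atp5e and Atp5h are low on both, and Cox7a2l is low in bulk and high in single cells.

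Most Cox4i2 molecules were found in macrophage-like cells and in the unnamed cluster 2. In that class there were 98 UMIs in WT (7.36 CPM, 95% exact Poisson interval 5.97 to 8.96) and 840 UMIs in KO (49.95 CPM, 46.6 to 53.4). Cluster 14, led by Cadm1, Vcam1 and C1qc, held 44 UMIs in WT (8.33 CPM) and 631 in KO (90.5 CPM), from 359 and 357 cells. Cluster 13 went from 9 UMIs (29.1 CPM, 13.3 to 55.2) to 88 UMIs (192 CPM), cluster 3 from 22 UMIs (14.1 CPM) to 69 (29.0 CPM), cluster 1 from 23 (3.73 CPM) to 52 (7.42 CPM), and the unnamed cluster 2 from 56 (6.21 CPM) to 88 (13.7 CPM). In CD8 T-like cells, which should lack this form, there were 4 UMIs (0.359 CPM) in WT and 7 (0.498 CPM) in KO at a higher median depth. Other classes lay between: monocyte-like cells had 7 UMIs (1.13 CPM) and 12 UMIs (2.07 CPM), regulatory T-like cells 8 (1.36 CPM) and 19 (2.87 CPM), and neutrophil-like cells 2 (1.24 CPM, interval 0.151 to 4.49) and 14 (6.30 CPM, 3.44 to 10.6). UMIs from free RNA in these classes cannot be told apart from expression. Of the leading genes of cluster 14, Cadm1, which also marks type 1 dendritic cells, rose in bulk from 61.7 ± 1.98 to 158 ± 7.66 CPM. It was named after its value was seen. The macrophage markers, which include C1qa and C1qc of the same cluster, rose in 5 and fell in 5 of 12. Whether the markers of cluster 14 moved as a set in bulk was not tested. Cluster 14 held 359 cells in WT and 357 in KO, and the cluster with these leading genes held 157 and 239 cells at resolution 0.5 and 589 and 412 at resolution 2, so its size depends on the clustering.

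Outside macrophages the members' share went in different directions. It was lower in KO in CD8 T-like cells (ratio 0.934, interval 0.929 to 0.939), gamma-delta T or ILC-like cells (0.930), neutrophil-like cells (0.910) and regulatory T-like cells (0.962). It was higher in NK-like (1.04), monocyte-like (1.04), CD4 T-like (1.03), B-like (1.07) and fibroblast or endothelial-like cells (1.08). In CD8 T-like cells 69 of 78 members had a log2 ratio below 0 (median -0.11, all genes -0.04), most of it in cluster 18, led by Gzmf and Pdcd1 and cytotoxic in its leading genes, where the ratio was 0.886, while cluster 17 (Gzmk, Ccl5) had 1.07. The largest ratios there were Cox7a2l (0.25) and Uqcrh (0.10) and the lowest Ndufc1 (-0.32) and Sdhb (-0.31). In regulatory T-like cells Ndufs8 (0.27) and Atp5d (0.15) were highest and Ndufab1, the mitochondrial acyl carrier protein (-0.35), and Ndufa9 (-0.32) lowest, so Ndufa9 was higher in KO in macrophage-like cells and lower in regulatory T-like cells. Whether these differ was not tested.

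In monocyte-like cells Ndufv1 (0.35) and Ndufa10 (0.30) had the highest ratios and Ndufa2 (-0.19) and Ndufs5 (-0.19) the lowest. In neutrophil-like cells, where 25 members reached the UMI minimum, Cox5b (0.07) and Cox6c (0.05) were highest and Atp5j2 (-0.45) and Atp5md (-0.36) lowest. In NK-like cells Atp5g1 (0.28) and Atp5md (0.25) were highest and Ndufs1 (-0.23) and Ndufv2 (-0.23) lowest. In CD4 T-like cells Uqcrfs1 (0.32) and Atp5md (0.28) were highest and Ndufb2 (-0.24) and Sdha (-0.22) lowest. In gamma-delta T or ILC-like cells Ndufv3 (0.23) and Cox7a2l (0.17) were highest and Atp5j (-0.67, 204 and 150 UMIs) and Uqcrb (-0.38) lowest. In fibroblast or endothelial-like cells, from 67 and 33 cells, Atp5g3 (0.46) and Atp5md (0.37) were highest and Uqcrh (-0.20) and Atp5d (-0.18) lowest. Cox6a2, the heart and muscle form of subunit 6a, was concentrated in the unnamed cluster 7, led by Siglech, Ccr9, Ly6d and Clec9a, with 202 UMIs (79.2 CPM) in WT and 130 UMIs (57.4 CPM) in KO, where macrophage-like cells had 4 and 26 UMIs (0.30 and 1.55 CPM).

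Few members carried a listed chromatin peak at their start. An ATAC region overlapped the window of 1000 bases on each side of the start in 5 of the 82 members tested in bulk (6.1%), against 8.47% of all 12939 genes tested. These were Ndufa4, Cox8a, Ndufa5, Ndufb6 and Uqcr11, the first 2 called from WT and the other 3 from KO. The Ndufa4 region was centred 117 bases before the start and its score, as the authors gave it, lay at the 95th percentile of the list. No member had an EGR2 peak of the WT list in that window (1.12% of all genes did), and 1 member, Ndufa12, had one of the KO list (0.79% of all genes), a low-scoring peak centred 1036 bases after the start. The lists hold no value for starts outside peaks, so openness of the other members was not measured here.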

How the data were processed

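Bulk RNA files hold raw counts, which the authors made per the file headers by running featureCounts 2.0.6 with GENCODE M10 models, counting both reads of a pair, ignoring strand and leaving out multi-mapped reads. Single cell matrices hold deposited UMI counts from Cell Ranger 8.0.1, per their headers. Peaks in the deposited lists are 501 bases wide and carry the authors' score, and the caller is not given in the sources used here. Submitters' processing notes name mm10.

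The members and gene lists were chosen with earlier results of these data known. Bulk counts were tested with edgeR 4.0.16 (filterByExpr, TMM, 2-sided quasi-likelihood F-test, 12939 genes) in R 4.3.3. On simulated counts it called 24%, 72%, 94% and 100% of genes changed 1.2-, 1.5-, 2- and 4-fold, and 0.064% of unchanged genes. The simulation changed 50 of 12643 genes at each fold, while 37.7% of genes were called in the real fit. These rates therefore need not hold for the real fit. Members were joined across tables by Ensembl ID, and 4 bear different symbols in them.

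Filtering kept cells with 500 or more genes, 1000 or more UMIs and no more than 10% of UMIs from mitochondria. Scrublet doublets were removed (4.91% of WT and 3.16% of KO cells), and the matrices were clustered together in scanpy 1.11.5 (2000 variable genes, 30 components, 15 neighbours, resolution 1). Class names went to clusters by their top marker score. It had to pass 0.3, lead the next by 0.05 and rest on 3 markers in 20% of cells. The class also needed at least as many markers among the cluster's 10 leading genes as any other class had. Shallow clusters with none of their class's markers there stayed unnamed. Cluster 2 scored highest for macrophage (0.985, next 0.573) and missed a name by its leading genes alone. UMIs were summed per class.

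Named genes are, per complex, up to 3 called members with the smallest adjusted p each way, the Sdh genes and isoform sets, per class the 2 members at each end among those with 100 UMIs, and up to 2 called genes per other list. H3K27ac, H3K4me1 and EGR2 ChIP samples were not used here, and 1 member and 1 other gene are counted but not reported by name.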

Additional observations from a re-analysis of the deposited data

Results flagged for a closer look

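The members' summed share of UMIs was higher in KO than in WT in macrophage-like cells (ratio 1.13) and lower in 4 other classes of the same pair of matrices: 0.934 in CD8 T-like cells, 0.930 in gamma-delta T or ILC-like cells, 0.910 in neutrophil-like cells and 0.962 in regulatory T-like cells. What marks them is the opposite direction of classes under the same contrast, each with a counting interval on 1 side of 1. The macrophage-like ratio depends on which cells enter: it was 1.06 with the unnamed cluster 2 added. By cluster it ran from 0.941 in cluster 3 to 1.149 in cluster 1. The difference between classes was not tested, since each genotype has 1 matrix. Neutrophils also recombine under Lyz2-cre, as background, while T cells largely do not.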

How the results depend on the processing

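Of 23 named members called in bulk, 17 kept their call under all 14 alternatives. The counts of members moved most with scaling and length. With library totals without TMM, an alternative chosen after the data were seen, 13 rose and 19 fell, beside 3370 and 1757 of all genes. With the length offset 14 rose and 16 fell, near the shares of all genes (16.5% and 19.3%). With members that share exon bases left out, also chosen after the data were seen, 5 rose. Leaving out 1 library at a time gave 6 to 8 higher and 22 to 27 lower, and DESeq2 gave 8 and 27. Replicate numbers did not pair the libraries (correlations of same-numbered deviations between -0.0116 and 0.0135 over 7029 genes), and a replicate block gave 8 higher and 27 lower. Signs turned in members near 0. With library totals Cox6a1 was at 0.039, Cox6b1 at 0.013 and Cox7a1 at 0.023. With the length offset these were at 0.11, 0.086 and 0.22 and Cox8a at 0.16. Counted as read pairs, Cox7a1 was at 0.032. Without 1 library, Cox7a1 ranged from -0.29 to 0.071, Ndufa4 from -0.042 to 0.077, Sdhc from -0.0086 to 0.058 and Sdhd from -0.0064 to 0.035.

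The macrophage-like ratio of 1.13 was 1.05 with looser and 1.07 with stricter cell filters, 1.06 with doublets kept, 1.06 and 1.07 at resolutions 0.5 and 2, 1.02 with members left out of the variable genes and 1.06 with the unnamed cluster added. Clusters 1, 3, 13 and 14 alone, chosen after the data were seen, gave 1.149, 0.941, 1.001 and 1.142. The members' median log2 ratio of 0.17 was then 0.070, 0.087, 0.067, 0.092, 0.077, 0.066 and 0.077 for the same settings in that order. The CD4 T-like ratio became 0.993 and its median -0.024 with the stricter filter. The cause was not tested. ATAC regions were found at the starts of 3 tested members with a window of 250 bases, 15 with 5000 bases and 3 in the higher-scoring part of the list. That is 3.66%, 18.29% and 3.66% of tested members against 4.96%, 23.18% and 5.38% of genes. Regions called from KO gave 14.63% against 11.79% with 5000 bases. With 5000 bases, EGR2 peaks of the WT list were found at the starts of 2 tested members (2.44%, all genes 4.62%). Those of the KO list were found at 3 (3.66%, all genes 3.76%). The KO list gave 0 with 250 bases, with the higher-scoring part and with an overlap of 250 bases. Depth limits rare forms: Cox4i2 had 98 UMIs in WT macrophage-like cells.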

Other observations

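Ndufa4l2, a relative of Ndufa4 known from cells under low oxygen, was measured in few places. In fibroblast or endothelial-like cells there were 89 UMIs in WT (91.3 CPM, from 67 cells) and 0 UMIs in KO (33 cells), where 3 UMIs would be 6.19 CPM. This cluster scored 3.236 for its class and 2.527 for tumour or epithelial markers, and whether it mixes such cells was not tested. The unnamed cluster 2, led by Ccl17 and Mmp12, held 1 UMI in WT and 28 UMIs in KO (4.37 CPM), and macrophage-like cluster 3 held 0 UMIs in WT (exact Poisson upper limit 2.36 CPM) and 12 in KO (5.04 CPM).

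Members made up 3.38% of UMIs in WT and 3.39% in KO in macrophage-like cluster 13, the highest share of all 23 clusters, at a median depth of 2409 UMIs. Its name depends on the processing. With doublets kept, a cluster led by Mcpt4, Cma1 and Ccl12 scored 2.278 for macrophage and 2.171 for mast or basophil. With the looser filter, a cluster with those leading genes scored 2.209 for mast or basophil and 1.452 for macrophage, and stayed unnamed. Whether cluster 13 mixes cell types was not tested. The clusters led by histone and mitosis genes had 1.99% and 2.13% (cluster 10, NK-like), 2.22% and 2.14% (cluster 12, CD8 T-like) and 2.07% and 1.97% (cluster 20, regulatory T-like).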
